A study of Mus musculus with 2 samples.

Results

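Messenger RNA levels of 49 genes of protein folding and quality control in the endoplasmic reticulum (ER) were examined in RNA sequencing of mouse pancreatic islets. The genes were chosen by name for 4 functions. These were 4 genes of ER stress sensing, 21 chaperones and folding enzymes, 13 disulfide isomerases and oxidases, and 11 genes of ER-associated degradation. All 49 were found among the 44713 genes of the count table. The db/db islets came from C57BL/6 mice labelled Lepr-/-, after the leptin receptor gene. Mice of the db/db genotype are a common model of obesity and type 2 diabetes. The db/m islets came from C57BL/6 mice labelled wild type. Both were labelled islet cells of the pancreas, isolated with collagenase and a density gradient, and neither age, sex, time of sampling nor the number of animals per library is given in the sources used here. The design names triplicates, but the count table holds only 1 library per group, and both libraries are numbered 4 in their titles. How this number relates to the triplicates is not given. There was therefore no replicate error and no test, and each ratio of db/db over db/m carries a 95% interval that covers counting error only.

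Cells of the pancreas that secrete hormones or digestive enzymes make large amounts of protein in the ER, where chaperones hold and fold new chains and oxidoreductases form their disulfide bonds. Proteins that do not fold are carried back to the cytosol and destroyed by the proteasome, a route called ER-associated degradation. When unfolded proteins accumulate, the membrane sensors IRE1 (encoded by Ern1), ATF6 and PERK start the unfolded protein response. IRE1 splices the Xbp1 messenger RNA, which then encodes an active transcription factor, while ATF6 is cut from the membrane and enters the nucleus. Both factors act on short promoter motifs, among them the ER stress element (ERSE), its variant ERSE-II and the unfolded protein response element (UPRE).

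Promoter sequences were read from RefSeq windows (GRCm38.p6) that run from 250 bases before to 50 bases after each annotated start, and 42 of the 49 genes matched a window. The ERSE was searched as CCAAT, any 9 bases and CCACG, the ERSE-II as ATTGG, any base and CCACG, and the UPRE as TGACGTGG, on both strands. The stretches are shown because the ERSE was held by 10 of the 42 genes (23.8%), against 37 of the 27025 genes with a window (0.137%), or 0.119% of all 32851 windows. Genes and motifs were both chosen for a known part in ER folding or ER stress, so this excess is not an independent result. The full 250 bases before the start follow for the gene with the highest ratio (Derl3, chr10:75893148-75893397, plus strand), for Herpud1 (chr8:94386179-94386428, plus strand), for the chaperone gene Hspa5 (chr2:34771840-34772089, plus strand) and for the gene with the lowest ratio (Xbp1, chr11:5520391-5520640, plus strand). Capitals mark the ERSE in Derl3 and Hspa5 and the ERSE-II in Herpud1, and the Xbp1 stretch held none of these letter strings.
Derl3: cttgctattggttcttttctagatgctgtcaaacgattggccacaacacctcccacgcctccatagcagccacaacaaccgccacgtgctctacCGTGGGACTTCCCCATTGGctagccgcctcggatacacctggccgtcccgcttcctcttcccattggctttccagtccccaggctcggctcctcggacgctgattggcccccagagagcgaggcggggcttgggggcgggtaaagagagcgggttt
Herpud1: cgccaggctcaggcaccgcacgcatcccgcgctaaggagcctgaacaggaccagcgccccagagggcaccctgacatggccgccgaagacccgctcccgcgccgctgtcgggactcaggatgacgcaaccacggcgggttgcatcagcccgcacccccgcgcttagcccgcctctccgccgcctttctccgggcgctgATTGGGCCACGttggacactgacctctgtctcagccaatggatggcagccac
Hspa5: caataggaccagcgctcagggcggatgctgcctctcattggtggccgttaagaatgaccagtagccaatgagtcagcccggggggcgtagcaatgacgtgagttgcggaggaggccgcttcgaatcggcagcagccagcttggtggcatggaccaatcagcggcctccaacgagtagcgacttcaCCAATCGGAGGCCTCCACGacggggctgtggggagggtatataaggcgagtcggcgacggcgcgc
Xbp1: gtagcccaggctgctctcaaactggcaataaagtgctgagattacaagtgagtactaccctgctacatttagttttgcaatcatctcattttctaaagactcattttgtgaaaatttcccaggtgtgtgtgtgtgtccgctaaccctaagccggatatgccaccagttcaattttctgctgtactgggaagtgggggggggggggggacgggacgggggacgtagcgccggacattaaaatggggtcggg

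The other 8 genes with an ERSE are shown with 10 bases on each side of the motif, in capitals, read in the direction of the gene. Those that begin with CGTGG in capitals hold it on the opposite strand, and Hsp90b1 held it in both directions.
Dnajc3: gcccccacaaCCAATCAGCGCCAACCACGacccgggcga
Syvn1: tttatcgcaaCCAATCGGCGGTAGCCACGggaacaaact
Creld2: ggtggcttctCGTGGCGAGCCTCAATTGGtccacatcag
Hsp90b1: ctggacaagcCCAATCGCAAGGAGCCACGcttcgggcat
Hsp90b1: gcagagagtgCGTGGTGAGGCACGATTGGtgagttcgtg
Canx: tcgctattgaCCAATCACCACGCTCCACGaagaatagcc
Pdia6: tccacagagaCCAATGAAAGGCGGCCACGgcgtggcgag
Calr: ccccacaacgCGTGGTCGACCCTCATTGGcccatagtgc
Ero1lb: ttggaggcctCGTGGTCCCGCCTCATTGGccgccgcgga

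The library of db/db islets held 18233695 counts and that of db/m islets 16271129. Levels are counts scaled by the TMM method, a trimmed mean over genes, and expressed per library size as CPM. On this scale 1 count stood for 0.0516 CPM in db/db islets and 0.0653 CPM in db/m islets. Most RNA of both libraries was exocrine. The 35 acinar markers took 73.7% of the counts in db/db islets and 73.9% in db/m islets, and their summed ratio was 0.883 (0.882 to 0.883). The 25 islet endocrine markers took 0.237% and 0.171% of the counts, with a summed ratio of 1.23 (1.21 to 1.24), and of these genes 10 were called higher and 5 lower by a 2-fold limit. The endocrine markers did not share a direction. In db/db and db/m islets the insulin genes Ins2 and Ins1 stood at 1081 and 1029 CPM and at 135 and 284.9 CPM, the glucagon gene Gcg at 196 and 49.1 CPM, and the somatostatin gene Sst at 37.3 and 4.24 CPM. How much of each ER gene came from acinar and from endocrine cells was not measured, and in such bulk RNA fewer cells of a type cannot be told apart from less RNA per cell. Markers of other cells were scarce. In db/db and db/m islets the immune and plasma cell list summed to 444 and 422 counts, the endothelial list to 189 and 195, the fibroblast and stellate list to 213 and 155. Of plasma cell genes, Tnfrsf17 was at 0 in both, Igkc had 27 and 44 counts, Ighm 22 and 52, and Sdc1, which epithelial cells also express, 164 and 122. The 12 duct markers were lower in sum, at 5576 counts in db/db islets and 6386 in db/m islets (ratio 0.690, 0.666 to 0.715). Of the 9 duct markers of at least 1 CPM, 7 had ratios below 1, 6 of them by the interval, and 2 had ratios above 1. Cytosolic heat shock genes and immediate early genes, which respond to handling of tissue, were lower in db/db islets, by at least 2-fold in 12 of 14 and 17 of 18 measured genes. Their sums were 10697 and 3178 counts in db/db islets, against 33487 and 16440 counts in db/m islets. The part of these lists in the ER values was not tested.

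Of the 49 genes, 48 had a mean of at least 1 CPM and 45 of at least 10 CPM. Manf, a stress-inducible ER protein that is also secreted, had 1 count in db/db islets and 0 in db/m islets, under the floor of 3 counts, and has no ratio. How reads of this gene were annotated and counted could not be checked, so the value does not show that Manf was not expressed. Counts of the other 48 ran from 58 for Pdia5 in db/m islets to 42533 for Pdia2 in db/db islets. None of the 48 was called, that is, at least 2-fold apart with an interval excluding 1. Of the 10300 genes of at least 1 CPM, 3.83% were called higher and 4.04% lower. Calls were rarer among the 4148 genes of at least 10 CPM, where 45 of the 48 lie, at 36 higher and 95 lower. A limit of 1.5-fold was passed upward by 5 genes (Derl3, Fkbp11, Dnajc3, Herpud1 and Derl1), which is 10.4% against 8.63% of all genes. It was passed downward by 1 gene, Xbp1, which is 2.08% against 8.87% of all genes. Among the 4148 genes of at least 10 CPM, 186 passed this limit upward and 227 downward. Of the 45 ER genes at that depth, 5 and 1 did. None of the ER genes was called at 2-fold, but neither were 4017 of the 4148 genes of at least 10 CPM. Small differences were thus not particular to the ER genes. Their upward share was near that of all genes of at least 1 CPM but above that of the genes of at least 10 CPM.

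Most of these small differences lay on one side. The ratio was above 1 in 37 of 48 genes (77.1%), against 52.4% of all genes of at least 1 CPM and 54.5% of those of at least 10 CPM. The median log2 ratio was 0.29, against 0.02 over all genes, and the range was -0.84 to 0.81. The upper quartile of all genes was exceeded by 25 of the 48, and 4 lay below the lower quartile. By the interval alone, 31 genes were higher in db/db islets, 6 were lower and 11 had an interval that includes 1. The background of that rule was 20.7% higher and 18.2% lower among all genes, and 28.9% higher and 23% lower among the genes of at least 10 CPM, where the 31 and 6 ER genes also lie. Since intervals narrow with depth, the last pair is the closer one to set beside the ER genes.

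**Figure D1:**
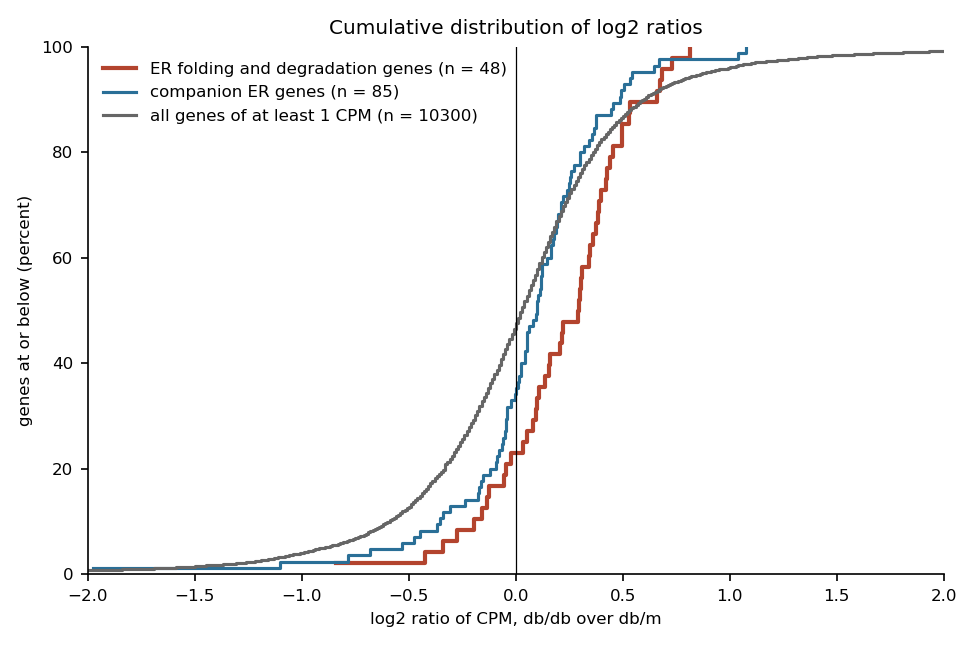
Percent of genes (y axis) at or below each log2 ratio of db/db over db/m (x axis) for the 48 ER folding and degradation genes, the 85 companion ER genes and the 10300 genes of at least 1 CPM. The line of the ER genes lies to the right of the line of all genes through its middle, with medians of 0.29 and 0.02, and its upper end stops at 0.81.

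The scaling sets the level of all ratios alike. Total counts in place of TMM raised every log2 ratio by 0.18, so that the median of the ER genes was 0.47 and that of all genes 0.20. The difference between the medians, 0.27, cannot change with the scaling, which adds 1 constant to every log2 ratio. With total counts 43 of 48 ratios were above 1, against 68.5% of all genes, and 67.1% of the 2-fold calls over all genes were higher, in place of 48.7%. The 6 genes whose direction turned were Atf6b, Hspa5, Ppib, Uggt1, Pdia2 and Vcp. By the interval alone, 37 genes were higher and 3 lower with total counts, in place of 31 and 6. The sum of all ER counts was 204770 in db/db islets, or 1.12% of its counts (exact binomial interval 1.12% to 1.13%), and 148844 in db/m islets, or 0.915% (0.910% to 0.919%). The ratio of these sums was 1.09 (1.08 to 1.09). Pdia2, Sel1l and P4hb made up 45.5% of the ER counts in db/db islets and 48.5% in db/m islets, shares that are not corrected for gene length. Without these 3 genes the ratio of the sums was 1.15.

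Among the 4 sensing genes, Xbp1 (chromosome 11, 5520641 to 5525993) stood apart from the rest. It had 4171 counts and 215 CPM in db/db islets, against 5907 counts and 386 CPM in db/m islets. The ratio of 0.558 (0.536 to 0.581) was the lowest of the 48 genes and remained below 1 with total counts, at 0.630. No scaling enters when Xbp1 is set against the summed counts of the other ER genes within each library, and on that scale it was at 0.503 (0.483 to 0.524). Against Hspa5 alone it was at 0.568 (0.540 to 0.597). Spliced and unspliced Xbp1 are counted together here. Ern1, the kinase and nuclease that splices it, was at 64.9 CPM in db/db islets and 58.3 CPM in db/m islets, with a ratio of 1.11 (1.02 to 1.22).

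Atf6 stood at 164 CPM in db/db islets and 129 CPM in db/m islets, a ratio of 1.27 (1.20 to 1.35). Its relative Atf6b stood at 10.3 and 10.7 CPM, a ratio of 0.964 (0.780 to 1.19) that was 1.09 with total counts, and the ratio of Atf6 was 1.32 times that of Atf6b (1.06 to 1.64). The sensing genes therefore did not share a direction. Their median log2 ratio was 0.05, and their summed counts were 1.28-fold lower (1.25 to 1.32), a sum in which Xbp1 holds most counts of db/m islets.

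**Figure D2:**
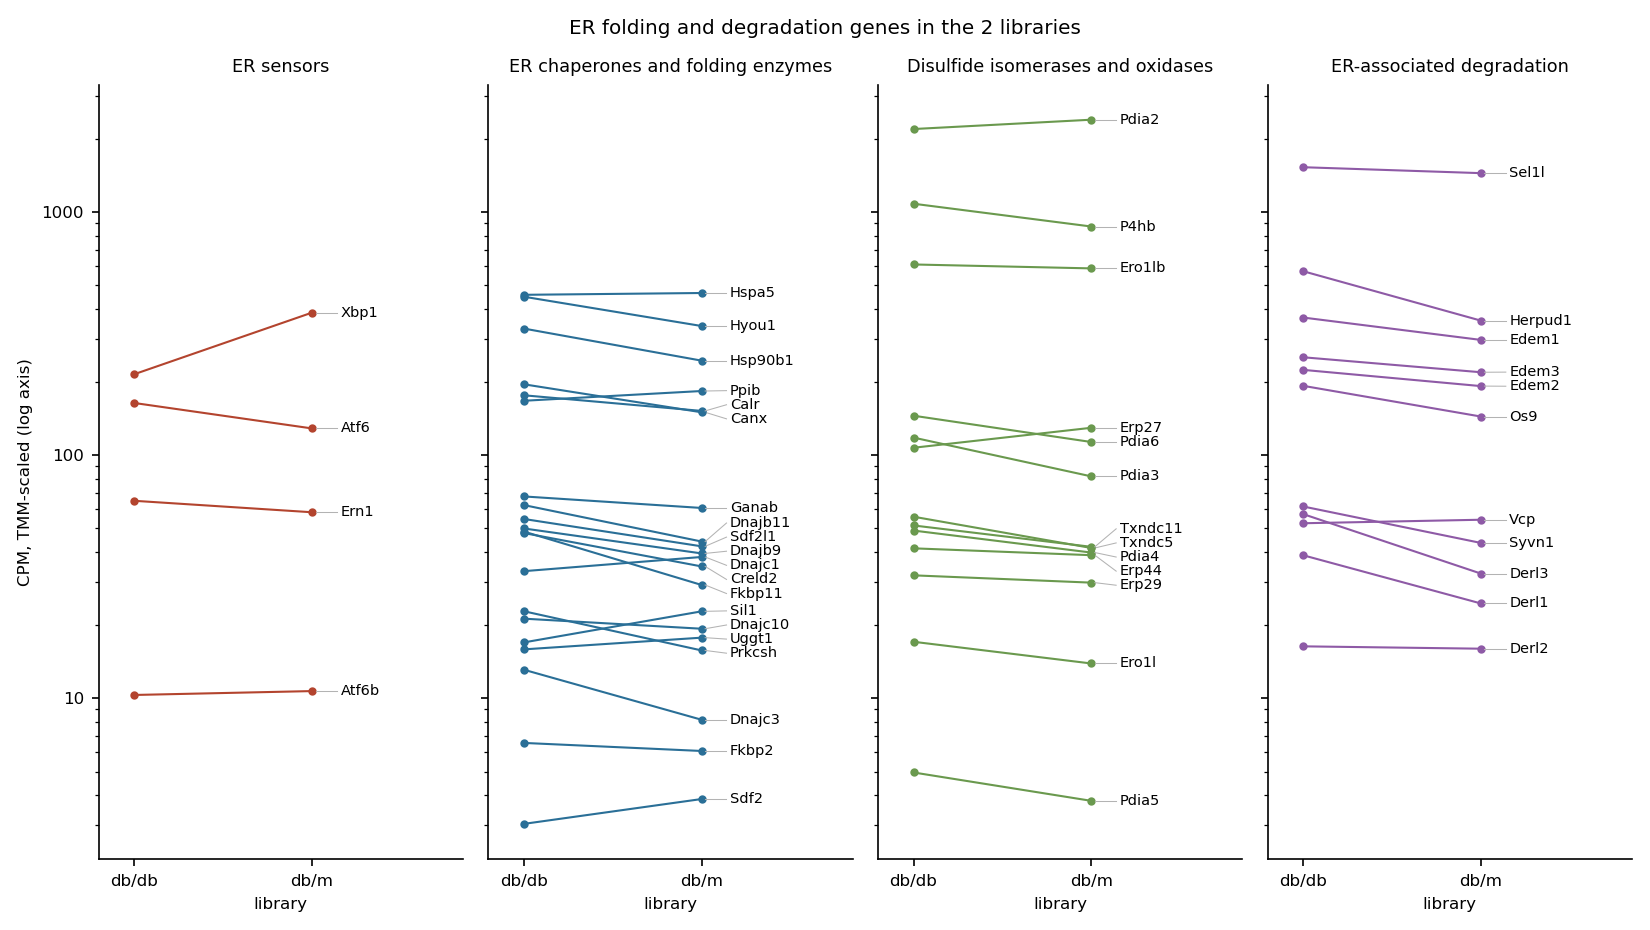
TMM-scaled CPM (log y axis) of the 48 genes in db/db islets (left point) and db/m islets (right point), with 1 line per gene and 1 panel per function. Xbp1 runs up to the right, with 215 CPM in db/db and 386 CPM in db/m, while most lines of the degradation panel run down to the right.

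Chaperones and folding enzymes gave 20 genes with a ratio, with a median log2 ratio of 0.28. Of these ratios, 14 were above 1 (70%, against 52.4% of all genes of at least 1 CPM) and 6 below. By the interval alone 12 were higher, 3 were lower and 5 had an interval that includes 1. The luminal HSP70 gene Hspa5 (BiP), the main target by which the unfolded protein response is followed, had 8849 counts and 457 CPM in db/db islets, against 7114 counts and 465 CPM in db/m islets. Its ratio of 0.983 (0.953 to 1.01) was 1.11 with total counts, and RefSeq places it over Rabepk, which had 41 and 25 counts. The ratios of Hsp90b1 and Hyou1 were higher than that of Hspa5. Hsp90b1, the HSP90 of the ER, was at 332 CPM in db/db islets and 245 CPM in db/m islets (1.36-fold, 1.30 to 1.41). Hyou1, an HSP70 relative that exchanges nucleotide on BiP, was at 449 and 339.8 CPM in db/db and db/m islets (1.32-fold, 1.28 to 1.37).

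The other exchange factor of BiP, Sil1, went the other way. It was at 17.0 CPM in db/db islets and 22.8 CPM in db/m islets, 1.34-fold lower (1.15 to 1.57), and after Xbp1 it had the lowest ratio of the ER genes. The J-proteins, which bring clients to BiP or start its ATPase, had ratios on both sides of 1. Dnajc3 was at 13.1 CPM in db/db islets and 8.16 CPM in db/m islets (1.61-fold, 1.29 to 2.01). Dnajb11 was at 62.3 and 44.1 CPM in db/db and db/m islets (1.41-fold, 1.28 to 1.55) and Dnajb9 had 968 and 604 counts (1.27-fold, 1.14 to 1.40). Dnajc10, which also reduces disulfides of degradation clients, had a ratio of 1.10 with an interval that includes 1 (0.945 to 1.28). Dnajc1 was at 33.3 CPM in db/db islets and 38.1 CPM in db/m islets, 1.14-fold lower (1.02 to 1.28), but its ratio was 0.987 with total counts. The ratio of Dnajc3 was 1.84 times that of Dnajc1 (1.43 to 2.36).

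Sdf2l1 and Sdf2 encode related luminal proteins, and the first works with the J-protein of Dnajb11. Sdf2l1 was at 54.7 CPM in db/db islets and 42.2 CPM in db/m islets (1.30-fold, 1.17 to 1.43). Sdf2 had 59 counts in each library, a ratio of 0.790 (0.541 to 1.15), and is uncertain because RefSeq places it over Supt6, which had 672 and 534 counts. Creld2, a gene induced by ER stress, was at 47.8 CPM in db/db islets and 34.9 CPM in db/m islets (1.37-fold, 1.23 to 1.53).

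The lectin chaperones calnexin (Canx) and calreticulin (Calr) hold glycoproteins during folding. Canx was at 196 CPM in db/db islets and 150.1 CPM in db/m islets (1.30-fold, 1.24 to 1.37), and Calr at 176 and 152 CPM (1.16-fold, 1.10 to 1.22). Glucosidase II trims the glycans that these lectins read. Its catalytic subunit gene Ganab had a ratio of 1.12 (1.02 to 1.21), and its partner subunit gene Prkcsh was at 22.8 CPM in db/db islets and 15.7 CPM in db/m islets (1.45-fold, 1.24 to 1.70). Uggt1, which returns unfolded glycoproteins to the lectins, had a ratio of 0.895 whose interval includes 1 (0.758 to 1.06), and 1.01 with total counts.

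Prolyl isomerases spanned a wide range. Fkbp11 (chromosome 15, 98724368 to 98728198) had 940 counts and 48.5 CPM in db/db islets, against 448 counts and 29.3 CPM in db/m islets. Its ratio of 1.66 (1.48 to 1.86) was the next to highest of the 48 genes. Fkbp2 had a ratio of 1.08 (0.819 to 1.43), and that of Fkbp11 was 1.54 times as high (1.14 to 2.07). Ppib (cyclophilin B) was at 167 CPM in db/db islets and 184 CPM in db/m islets, 1.10-fold lower (1.04 to 1.15), but 1.03-fold higher with total counts.

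**Figure D3:**
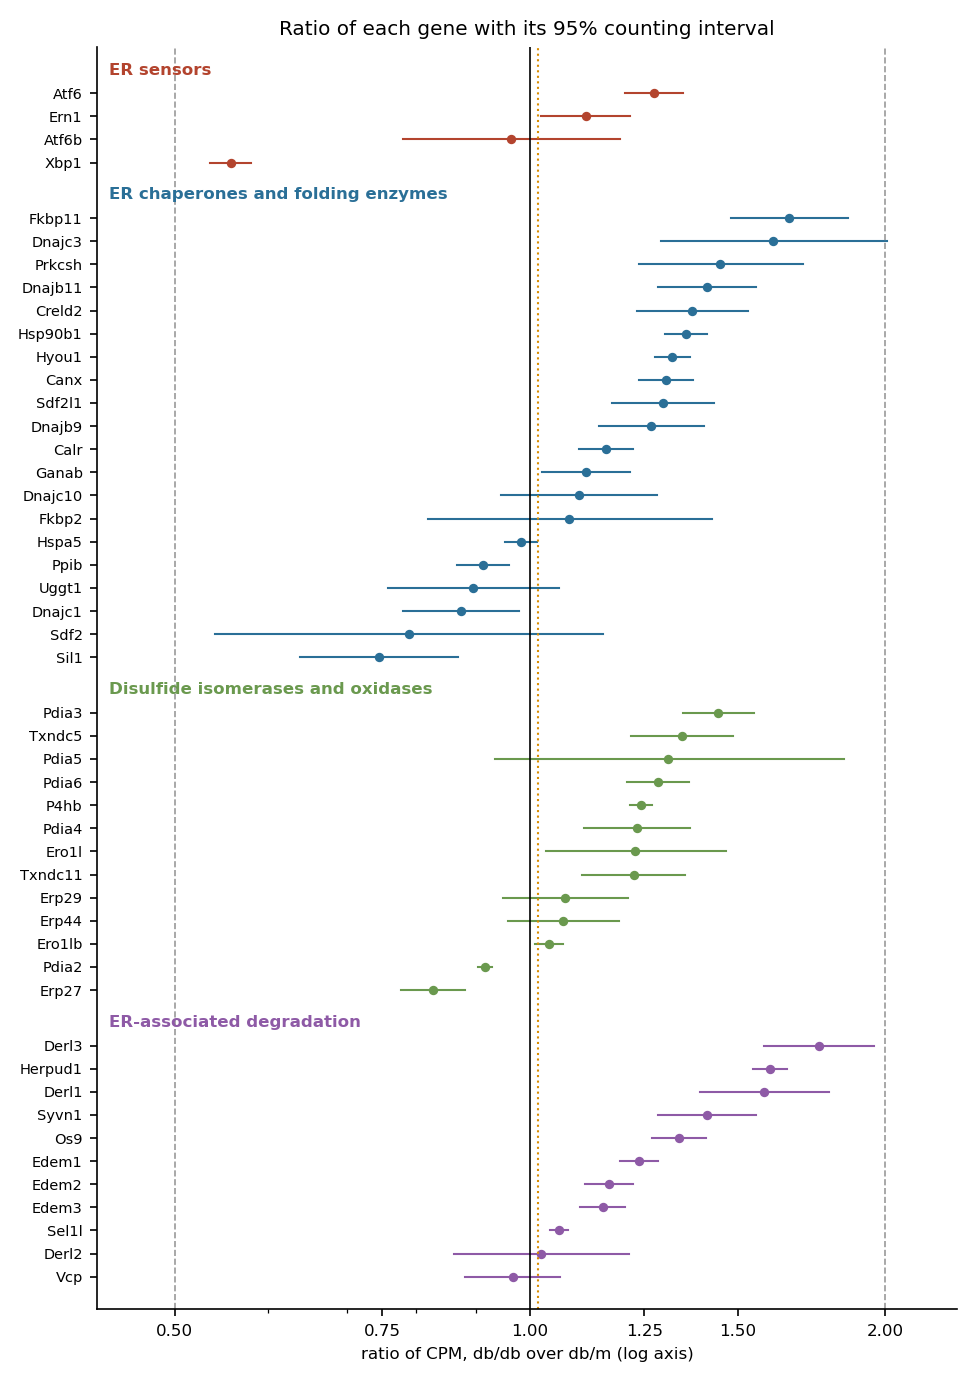
Ratio of CPM in db/db over db/m (log x axis) for each of the 48 genes, with the 95% counting interval as a bar, grouped by function. The solid line marks 1, the dashed lines mark 2-fold in either direction, and the dotted line marks the median of all genes. No point reaches a dashed line, Derl3 and Fkbp11 lie farthest to the right and Xbp1 farthest to the left.

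Disulfide isomerases and oxidases gave 13 ratios, with a median log2 ratio of 0.30. Of these, 11 were above 1 (84.6%, against 52.4% of all genes of at least 1 CPM). By the interval alone 8 were higher, 2 were lower and 3 had an interval that includes 1. Pdia3, which works with calnexin and calreticulin on glycoproteins, had the highest ratio of the group, with 118 CPM in db/db islets and 81.8 CPM in db/m islets (1.44-fold, 1.35 to 1.55). P4hb, the classical protein disulfide isomerase, was at 1082 CPM in db/db islets and 872 CPM in db/m islets (1.24-fold, 1.21 to 1.27). Pdia6 was at 145 CPM in db/db islets and 113 CPM in db/m islets (1.28-fold, 1.21 to 1.36). The isomerase genes Pdia4 and Txndc5 lay in the same range, Pdia4 with 949 and 609 counts in db/db and db/m islets (1.23-fold, 1.11 to 1.37) and Txndc5 at 55.8 and 41.5 CPM (1.34-fold, 1.22 to 1.49). Txndc11, a membrane-bound member of the family, was 1.22-fold higher (1.11 to 1.35). Pdia5 had few counts, 96 in db/db islets and 58 in db/m islets, and its interval of 0.935 to 1.84 includes 1.

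Pdia2, the isomerase typical of the exocrine pancreas, did not share this direction. It was at 2195 CPM in db/db islets and 2398 CPM in db/m islets, a ratio of 0.915 (0.903 to 0.928) that was 1.03 with total counts. Set against the other isomerases of the same name, where no scaling enters, Pdia2 was lower each time. The ratio of Pdia3 was 1.58 times that of Pdia2 (1.47 to 1.69), that of Pdia6 1.40 times (1.32 to 1.49) and that of Pdia4 1.35 times (1.21 to 1.49). The noncatalytic protein Erp27 was at 107 CPM in db/db islets and 129.6 CPM in db/m islets, 1.21-fold lower (1.14 to 1.29). Erp29 and Erp44, a chaperone of secreted proteins and a factor that retains Ero1 oxidases in the cell, both had a ratio of 1.07 with an interval that includes 1. The ratio of Erp29 was 1.29 times that of Erp27 (1.13 to 1.49). Acinar markers were lower on this scale too, with 24 of 35 ratios below 1 and a median log2 ratio of -0.19, and their part in the values of Pdia2 and Erp27 was not tested.

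The Ero1 oxidases pass electrons from the isomerases to oxygen. Ero1lb, the form typical of the pancreas, was at 609 CPM in db/db islets and 587 CPM in db/m islets (1.04-fold, 1.01 to 1.07). Ero1l was at 17.1 and 13.9 CPM in db/db and db/m islets (1.23-fold, 1.03 to 1.47). The ratio between these ratios was 1.18 with an interval of 0.990 to 1.42, so no difference between the forms was detectable at this depth. The summed counts of the group were 87357 in db/db islets and 67240 in db/m islets, a ratio of 1.03 (1.02 to 1.04) in which Pdia2 holds 42533 and 36720 counts.

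Genes of ER-associated degradation had the most even direction, with 10 of 11 ratios above 1 and a median log2 ratio of 0.31. By the interval alone 9 were higher, 0 were lower and 2 had an interval that includes 1. Derl3 (chromosome 10, 75893398 to 75895941), a membrane protein of the export channel, had 1109 counts and 57.2 CPM in db/db islets, against 499 counts and 32.6 CPM in db/m islets. The ratio of 1.76 (1.58 to 1.96) was the highest of the 48 genes. Derl1 was at 38.8 CPM in db/db islets and 24.6 CPM in db/m islets (1.58-fold, 1.39 to 1.79). Derl2 had 317 and 245 counts in db/db and db/m islets, a ratio of 1.02 (0.863 to 1.21), and is less certain because it lies over Mis12, which had 126 and 82 counts. The ratio of Derl3 was 1.72 times that of Derl2 (1.40 to 2.10), and that of Derl1 1.54 times (1.25 to 1.91).

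Herpud1 (chromosome 8, 94386429 to 94395371), a membrane protein that organizes the degradation complex, had 11064 counts and 571 CPM in db/db islets, against 5476 counts and 358 CPM in db/m islets. The ratio was 1.60 (1.55 to 1.65), and 1.62 times that of Hspa5 (1.55 to 1.70) within the same libraries. The ubiquitin ligase gene Syvn1 (HRD1) was at 61.5 CPM in db/db islets and 43.6 CPM in db/m islets (1.41-fold, 1.28 to 1.56). Its partner Sel1l differed less, at 1529 CPM in db/db islets and 1446 CPM in db/m islets (1.06-fold, 1.04 to 1.08). Os9, a lectin that delivers glycoproteins to this complex, was at 193 and 144 CPM in db/db and db/m islets (1.34-fold, 1.27 to 1.41).

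The Edem proteins mark glycoproteins for degradation by trimming mannose, and all 3 of their genes had ratios above 1. Edem1 was at 368 CPM in db/db islets and 298 CPM in db/m islets (1.24-fold, 1.19 to 1.28). Edem2 was at 224 and 192 CPM in db/db and db/m islets (1.17-fold, 1.11 to 1.22), and Edem3 at 253 and 219 CPM (1.15-fold, 1.10 to 1.20). Edem1 over Edem3 gave a ratio of ratios of 1.07 (1.01 to 1.14), Edem1 over Edem2 1.06 (0.998 to 1.13) and Edem2 over Edem3 1.01 (0.949 to 1.08). Vcp, the ATPase that pulls clients out of the membrane, was at 52.5 CPM in db/db islets and 54.3 CPM in db/m islets, with a ratio of 0.967 (0.882 to 1.06) that was 1.09 with total counts. It is less certain than the others, since the pseudogene Vcp-rs also took 310 counts in db/db islets and 220 in db/m islets.

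Within 10 groups of genes with a shared name, 34 pairs were compared, each as the ratio of the first gene divided by that of the second. The pairs, and the gene put first, were chosen after the values were seen. The gene with the higher ratio was put first, so every ratio of ratios is above 1 by construction. Of the 34 intervals, 20 excluded 1, and 10 did so when the interval was widened for 34 comparisons. These counts rest on depth as well, and the share among pairs of other genes was not computed. Those 10 lay in the Derl, Dnaj, Erp and Pdia groups. They set Derl1 and Derl3 against Derl2, Dnajc3, Dnajb11 and Dnajb9 against Dnajc1, Pdia3, Pdia4 and Pdia6 against Pdia2, and Erp29 and Erp44 against Erp27.

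**Figure D4:**
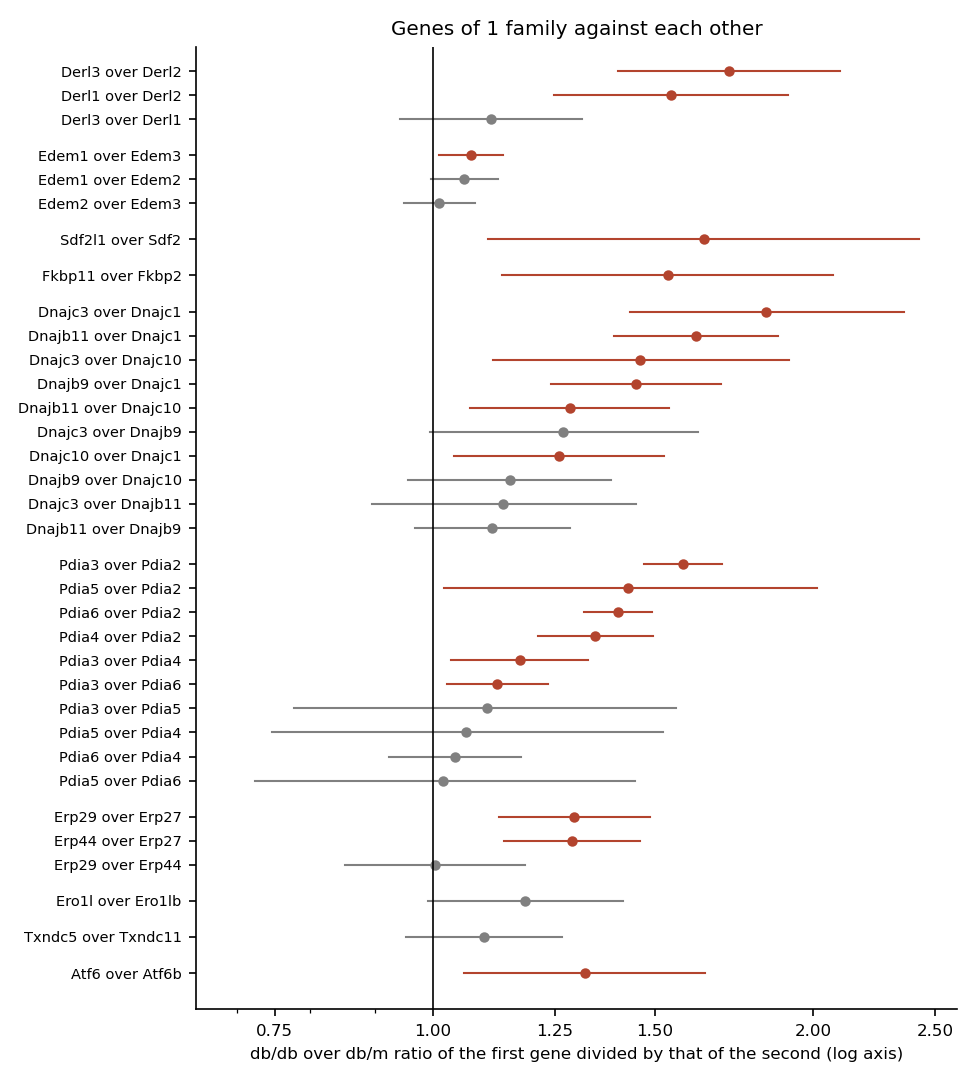
Ratio of db/db over db/m of the first gene divided by that of the second (log x axis) for 34 pairs of genes with a shared name, with exact 95% counting intervals as bars. Red intervals exclude 1 and grey intervals include it. The gene with the higher ratio was put first, so every point lies to the right of 1 by construction. The intervals of the pairs with Derl2, Dnajc1, Pdia2 or Erp27 as the second gene all exclude 1, and the Edem pairs lie close to 1.

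The genes with a promoter motif were also set beside their ratios. The 10 genes with an ERSE had a median log2 ratio of 0.41 and a range of -0.02 (Hspa5) to 0.81 (Derl3), and 9 of the 10 were above 0. The 32 genes that matched a window and held no ERSE had a median of 0.21 and a range of -0.84 (Xbp1) to 0.73 (Fkbp11), and 24 were above 0. The ranges overlap, and no test was made. The ERSE-II was held by 2 of the 42 genes (4.76%), Herpud1 (log2 ratio 0.68) and Dnajb11 (0.50), where it begins 8 bases after the start. Of all genes with a window, 0.0444% held it. The UPRE was held by 3 of the 42 genes (7.14%), Txndc5 (0.43), Txndc11 (0.29) and Vcp (-0.05), against 0.714% of all genes with a window. In Txndc5 and Txndc11 the match lies within the RefSeq span of the gene, before a start that is not the outermost one. No matches of these motifs overlapped each other in these genes. The ERSE was also held by 27 other genes. Of these, 4 were found in the count table under the same symbol with at least 1 CPM, with a median log2 ratio of 0.39. Older symbols were not searched for these other genes, so expressed ones may be missing.

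**Figure D5:**
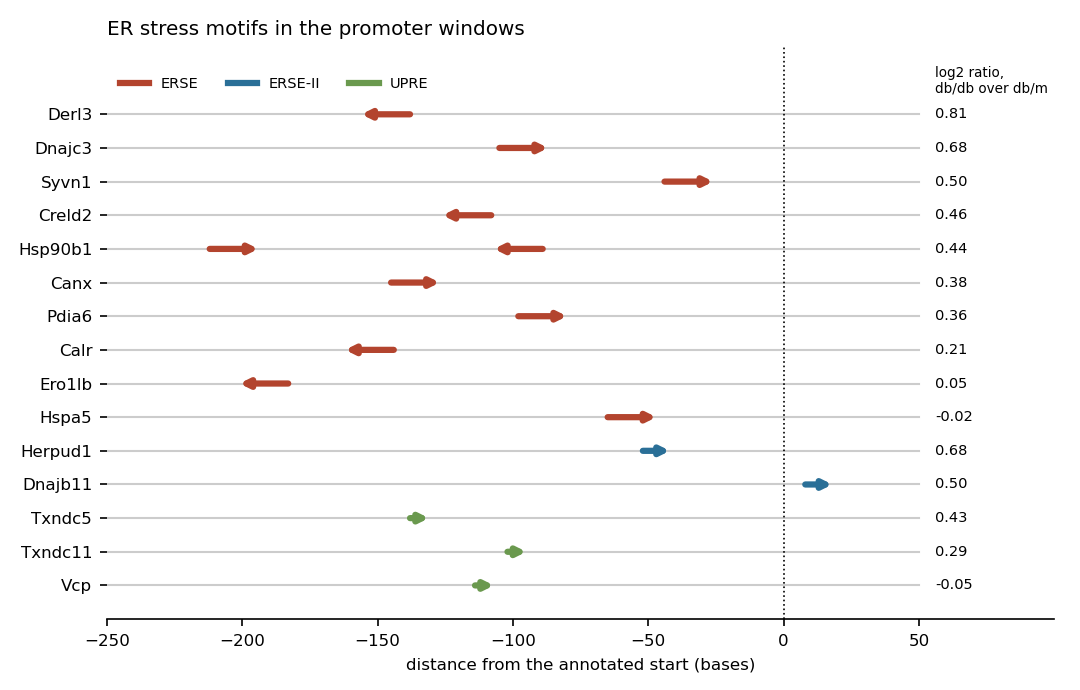
Positions of the motifs ERSE, ERSE-II and UPRE relative to the annotated start (x axis, bases) in the promoter windows of 15 genes, with arrows in the direction of the motif and the log2 ratio of db/db over db/m at the right. ERSE matches run from -212 to -26 relative to the start, and the genes that hold one run from Derl3 (0.81) to Hspa5 (-0.02).

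A companion list of 100 further ER genes was examined in the same way, of which 98 were found and 85 had at least 1 CPM. Their median log2 ratio was 0.10, with 55 of 85 ratios above 1 (64.7%). At least 2-fold, 2 were higher (2.35%, against 3.83% of all genes) and 2 were lower (2.35%, against 4.04%). The higher genes were Txndc16 and Sepn1, with 72 and 39 counts in db/db islets and 27 and 15 in db/m islets. The lower genes were Creb3l3 and Serpinh1, the collagen chaperone, with 9 and 73 counts in db/db islets and 28 and 124 in db/m islets. These 4 genes were singled out by their values. The medians were 0.04 for 13 genes of sensing and transcription, 0.21 for 22 of folding, 0.01 for 15 of thiol redox and 0.06 for 35 of degradation.

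Of 3 genes of the PERK arm of the response, no interval excluded 1 on the TMM scale. The sensor gene Eif2ak3 was at 141 CPM in db/db islets and 142 CPM in db/m islets, a ratio of 0.997 (0.942 to 1.06). The transcription factor gene Atf4 had a ratio of 1.04 (0.969 to 1.11), and Ddit3 (CHOP), with 59 counts in db/db islets and 34 in db/m islets, a ratio of 1.37 (0.885 to 2.16). With total counts these ratios were 1.13, 1.17 and 1.55. Their intervals rise by the same factor, so that those of Eif2ak3 and Atf4 then exclude 1 and that of Ddit3 still includes it. Among companions of at least 10 CPM the largest difference on the TMM scale was in Ppic (cyclophilin C), 1.72-fold lower (1.52 to 1.95). Lman1, a cargo receptor for export from the ER, was 1.46-fold higher (1.38 to 1.54), and the thioredoxin-like gene Tmx1 1.45-fold (1.20 to 1.75). Prdx4, the ER peroxiredoxin, was 1.45-fold lower (1.32 to 1.58), with a ratio of 0.780 with total counts, and Nploc4, a cofactor of the Vcp ATPase, 1.40-fold higher (1.26 to 1.56). The log2 ratios of all 85 companions ran from -1.98 to 1.08.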

How the data were processed

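Ribosomal RNA was removed from total RNA before library construction, per the labels' protocols. The aligner was HISAT2 2.0.4 with builds mm10 and GRCm38, per the submitters' processing notes. How reads were assigned to genes, and whether by strand, is not given in these sources. The authors deposited unnormalized counts of 44713 genes in 2 columns. Libraries were assigned by their titles.

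Counts were scaled with TMM (edgeR 4.0.16, R 4.3.3) over all 44713 genes. Ratios carry exact Clopper-Pearson 95% intervals of the share of db/db in both counts (Python 3.11.15, scipy 1.17.1), and ratios of ratios carry conditional exact intervals. PCR copies are not independent molecules, and the intervals hold counting error alone. A call needed 2-fold, a mean of 1 CPM before scaling and an interval excluding 1. A gene at 0 was set to a floor of 3 counts. Alternatives were total counts, DESeq2 1.42.0 size factors, total counts without acinar and endocrine markers, other filters and other call limits. Positions and promoters are from RefSeq (GRCm38.p6); the position table gives no strand. Figures used matplotlib 3.10.9.

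The members, the lists and the rules were chosen with earlier results of these data known. All 49 members could be named, with, of the companions, the 8 with the largest log2 ratio at 10 CPM or more and Eif2ak3, Atf4 and Ddit3, and of the markers up to 3 per list. Outside this rule, Txndc16, Sepn1, Creb3l3, Serpinh1 and the endocrine and plasma cell genes were chosen after their values were seen.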

Additional observations from a re-analysis of the deposited data

How the results depend on the processing

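No paired analysis was possible because each group has 1 library, and no library could be left out. The counts of called ER genes, 0 higher and 0 lower, were the same under each scaling, with no filter, at 10 CPM, at 4-fold and with the whole interval beyond 2-fold. They were 5 and 1 at 1.5-fold and 31 and 6 with the interval alone, the last pair being 37 and 3 with either total. The median log2 ratio of 0.29 was 0.47 with total counts and 0.46 with total counts without acinar and endocrine markers, which raise every ratio alike. DESeq2 size factors gave 0.29, and the median was 0.30 without the 8 genes that overlap an expressed gene or have a counted pseudogene, a setting added after the data were seen. By those scalings on totals, 35 and 34 of the 48 genes left their own counting interval. For the companions, 2 higher and 2 lower, the higher count was 4 at 1.5-fold, 26 with the interval alone, and 0 at 10 CPM, at 4-fold and with the whole interval. The lower count was 1 with either total, 7 with the interval alone, and 0 at 10 CPM, at 4-fold and with the whole interval. Depth limits Sdf2, Pdia5 and Fkbp2 most among the ER genes.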
